A study of Mus musculus with 14 samples.

Results

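The 35 glycolysis and hypoxia genes examined here were picked by symbol for what they encode, with earlier results of these data known. They comprise 22 genes of glycolysis (glucose and lactate transporters, the enzymes from hexokinase to lactate dehydrogenase, and the bifunctional enzymes that tune phosphofructokinase) and 13 genes of the hypoxia response (Hif1a, 2 of its oxygen-sensing regulators and known targets). The deposited tables list 15319 genes in the tumor-infiltrating lymphocyte (TIL) experiment, 19825 in the Prdm1 experiment and 15216 in the Bcl6 experiment. In each of them 34 of the 35 genes had a row. Ero1l was not analysed here. Vegfa lay under the filter of a mean of 1 FPKM in all 3 experiments, and Pfkfb4 lay under it in the TIL experiment. Tests therefore covered 32 genes in the TIL experiment (21 of glycolysis and 11 of hypoxia) and 33 in each of the others (22 and 11).

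All cells were CD8+ T cells from E.G7 tumors, a mouse lymphoma line that carries ovalbumin. In the TIL experiment, Bcl6+, TIM-3+ and DN populations were sorted on day 21 after tumor inoculation from mice of the Bcl6-RFP reporter genotype, which all these groups share; what DN stands for is not written out. In the OT-I experiments, OT-I cells, which bear a transgenic T cell receptor for an ovalbumin peptide, were transferred and recovered from tumors at about day 8, either as Prdm1-overexpressing cells and their controls or as Bcl6-overexpressing cells and their controls. Per the labels, overexpressing and control OT-I cells were transferred together, and neither the control vector nor the age of the animals is stated in the labels. Each of the 7 groups has 2 libraries. Nothing in the labels says that the libraries of a group came from separate animals, so p-values measure only the spread between these libraries, which may be technical.

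Glycolysis converts glucose to pyruvate. Activated T cells turn much of that pyruvate to lactate even when oxygen is present, and export the lactate through monocarboxylate transporters. When oxygen falls, the prolyl hydroxylases encoded by the Egln genes no longer mark the HIF-1α protein for destruction, and HIF-1 then raises transcription of glucose transporters, glycolytic enzymes, Pdk1, Bnip3 and other genes. HIF-1α is therefore governed largely at the protein level, and the level of Hif1a RNA is not a measure of its activity.

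Levels are given as the authors' FPKM (fragments scaled to gene length and sequencing depth), replicate 1 before replicate 2, and can be compared between genes. Changes are log2 fold changes of counts from edgeR's quasi-likelihood test, first-named group over second-named, with their standard error (SE) and a Benjamini-Hochberg adjusted p over all genes tested; a gene was called at an adjusted p under 0.05. Libraries held 18309162 to 22322079 counts. Bcl6 stood at 59.8 and 56.9 FPKM in Bcl6+, 2.16 and 2.65 in TIM-3+ and 12.7 and 13.4 in DN TILs. Havcr2, which encodes TIM-3, stood at 20.2 and 11.5 FPKM in Bcl6+, 469 and 489 in TIM-3+ and 69.8 and 61.5 in DN TILs. Bcl6 stood at 13.9 and 9.95 FPKM in Bcl6-overexpressing cells, against 0.573 and 0.530 in their controls. Prdm1 stood at 25.2 and 33.3 FPKM in Prdm1-overexpressing cells, against 19.4 and 16.1 in their controls, a log2 change of 0.81 (SE 0.19, adjusted p = 0.092) that did not pass the test. The T cell markers Cd8a (139 to 567 FPKM over all 14 libraries) and Cd3e (70.7 to 535 FPKM) were present in every library.

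In Bcl6+ against TIM-3+ TILs, 13 of the 21 glycolysis genes tested were lower and 4 were higher, while 19.6% of all tested genes were lower and 19.1% higher. Of the 11 hypoxia genes, 5 were higher and 0 lower, where 2 were lower at an unadjusted p under 0.05 and 0 in DESeq2. FPKM tested in limma called 3 hypoxia genes lower, and the fit without the filter called 1 lower. The median log2 change was -0.25 over the glycolysis genes and 0.04 over the hypoxia genes, against 0.01 over all genes. In TIM-3+ against DN TILs, 11 glycolysis genes rose and 3 fell, while 14.9% of all genes were higher and 13.2% lower; of the hypoxia genes, 1 was higher and 3 were lower, and the medians were 0.15 and 0.03. In Bcl6+ against DN TILs, 2 glycolysis genes were higher and 3 lower, and 2 hypoxia genes were higher and 0 lower (0 also at an unadjusted p and in DESeq2), while 6.49% of all genes were higher and 7.69% lower. Over the glycolysis genes, summed FPKM was 2449 to 2502 in Bcl6+, 3234 to 3276 in TIM-3+ and 2551 to 2552 in DN TILs. Over all genes the sum was 268076 and 268511 in Bcl6+, 334478 and 336448 in TIM-3+ and 285341 and 286144 in DN TILs. Differences between sums of FPKM, here and for the markers below, thus include this difference in the total. The TIL comparisons share libraries, so they are not independent of one another. In these bulk samples, fewer cells of a type and less RNA per cell cannot be told apart.

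These counts depend on the processing. With total counts in place of TMM scaling in edgeR, 10 glycolysis genes were lower in Bcl6+ than in TIM-3+ TILs in place of 13, and the split over all genes was 2896 higher and 1283 lower, against 1857 higher and 1907 lower with TMM scaling. With FPKM rescaled to a common sum (TPM) and tested in limma, which changes the test as well as the scaling, 7 glycolysis genes were lower, the split was 3455 higher and 1123 lower, and the median of all genes moved by 0.25 on the log2 scale. In TIM-3+ against DN TILs, TPM in limma gave 819 higher and 2275 lower genes and total counts 869 higher and 2173 lower, against 1454 higher and 1291 lower with TMM scaling.

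**Figure D1:**
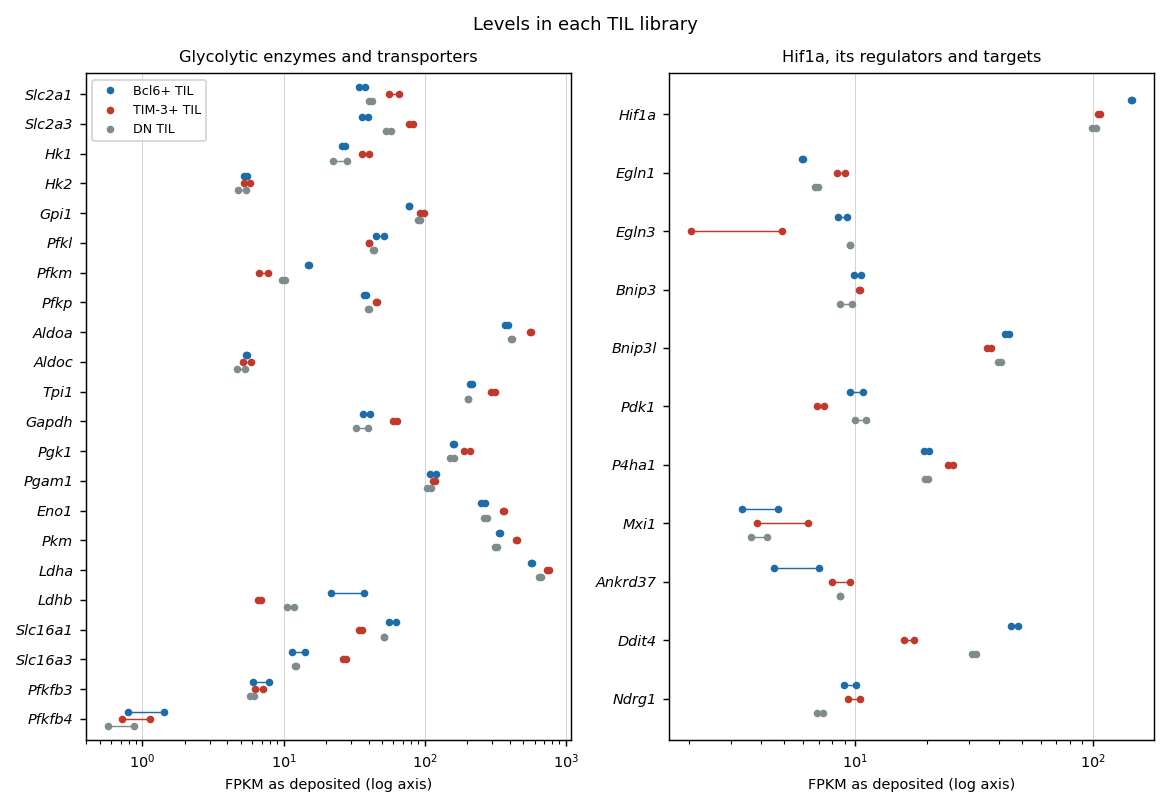
FPKM as deposited (log axis) of each glycolysis gene (left) and hypoxia gene (right) in the 2 Bcl6+, 2 TIM-3+ and 2 DN TIL libraries; each point is a library and a line joins the libraries of a group. The points for Slc2a3, Aldoa and Gapdh lie farthest right in TIM-3+ TILs, and those for Ldhb, Hif1a and Ddit4 lie farthest right in Bcl6+ TILs.

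The glucose transporter genes Slc2a1 and Slc2a3 were lower in Bcl6+ than in TIM-3+ TILs, while Slc2a6, of the same family and described below, was higher. Slc2a1, which encodes GLUT1, the main glucose transporter of activated T cells, had 34.4 and 37.8 FPKM in Bcl6+, 56.2 and 66.1 in TIM-3+ and 42.3 and 40.0 in DN TILs. Both TIM-3+ libraries lay above the other 4. The log2 change was -0.70 for Bcl6+ over TIM-3+ (SE 0.10, adjusted p = 8.2e-05) and 0.53 for TIM-3+ over DN (SE 0.10, adjusted p = 0.0014), while Bcl6+ over DN gave -0.18 (adjusted p = 0.31). Slc2a3 (GRCm38 chr6:122727809-122801640, minus strand) encodes the high-affinity transporter GLUT3 and had 35.9 and 39.8 FPKM in Bcl6+, 82.8 and 76.7 in TIM-3+ and 57.7 and 53.4 in DN TILs. Here the 3 populations did not overlap, with Bcl6+ lowest, DN in the middle and TIM-3+ highest. All 3 differences passed the test: -1.01 for Bcl6+ over TIM-3+ (SE 0.08, adjusted p = 1.3e-07), 0.47 for TIM-3+ over DN (adjusted p = 0.00029) and -0.54 for Bcl6+ over DN (adjusted p = 0.00021).

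The hexokinases, which trap glucose as its phosphate, differed from each other. Hk1 had 27.3 and 25.8 FPKM in Bcl6+, 35.9 and 40.0 in TIM-3+ and 22.3 and 28.0 in DN TILs, and was lower in Bcl6+ than in TIM-3+ TILs (log2 change -0.46, SE 0.10, adjusted p = 0.0025; -0.19 and adjusted p = 0.21 with TPM in limma). It was higher in TIM-3+ than in DN TILs (0.55, SE 0.10, adjusted p = 0.00097). Hk2, the isoform that HIF-1 is known to induce, stayed between 4.78 and 5.79 FPKM in all 6 libraries, and none of its comparisons passed the test. Gpi1, which isomerises glucose phosphate, had 77.0 and 77.4 FPKM in Bcl6+, 92.1 and 99.3 in TIM-3+ and 90.1 and 92.9 in DN TILs. Its log2 change of -0.25 for Bcl6+ over TIM-3+ (SE 0.06, adjusted p = 0.0047) became 0.01 with TPM in limma, and its adjusted p rose to 0.053 without TIM-3+ replicate 2.

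Phosphofructokinase, the committed step, is built from the subunits Pfkl, Pfkm and Pfkp, named for liver, muscle and platelet. Pfkm had 15.0 and 15.1 FPKM in Bcl6+, 7.79 and 6.66 in TIM-3+ and 9.80 and 10.2 in DN TILs. The populations did not overlap, and Bcl6+ TILs were highest. Pfkm was 2.18-fold higher in Bcl6+ than in TIM-3+ TILs (log2 change 1.12, SE 0.17, adjusted p = 0.00012). The changes against DN TILs were 0.61 for Bcl6+ (adjusted p = 0.026) and -0.52 for TIM-3+ (adjusted p = 0.036). Leaving out any Bcl6+ or DN library took the adjusted p for Bcl6+ over DN above the threshold, to between 0.072 and 0.16, and for TIM-3+ over DN it was 0.12 and 0.15 without DN replicate 1 and 2 and 0.19 without TIM-3+ replicate 2.

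The other subunits moved by less. Pfkl had 45.0 and 51.3 FPKM in Bcl6+, 40.4 and 40.0 in TIM-3+ and 43.7 and 43.2 in DN TILs, and rose by 0.32 on the log2 scale in Bcl6+ over TIM-3+ TILs (SE 0.08, adjusted p = 0.0047). Pfkp had 38.4 and 37.1 FPKM in Bcl6+, 45.8 and 45.1 in TIM-3+ and 40.3 and 39.9 in DN TILs, a log2 change of -0.21 for Bcl6+ over TIM-3+ (SE 0.06, adjusted p = 0.011) that became 0.05 with TPM in limma and had an adjusted p of 0.056 without TIM-3+ replicate 1. The muscle subunit thus made up 15.2% and 14.6% of the summed phosphofructokinase FPKM in Bcl6+, 8.29% and 7.25% in TIM-3+ and 10.5% and 10.9% in DN TILs. Pfkfb3 and Pfkfb4 make and remove the sugar phosphate that activates phosphofructokinase. Pfkfb3 stayed between 5.76 and 7.94 FPKM and passed no test, and Pfkfb4 stayed between 0.570 and 1.41 FPKM and was not tested.

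The enzymes from aldolase down to the formation of pyruvate were mostly highest in TIM-3+ TILs. Aldoa, the main aldolase, had 368 and 391 FPKM in Bcl6+, 559 and 564 in TIM-3+ and 410 and 414 in DN TILs, and was 1.42-fold lower in Bcl6+ than in TIM-3+ TILs (log2 change -0.51, SE 0.05, adjusted p = 1.2e-06). Tpi1, Gapdh, Eno1 and Pkm, which interconvert the trioses, oxidise them, form phosphoenolpyruvate and yield pyruvate, were also lower in Bcl6+ than in TIM-3+ TILs, by log2 changes of -0.46, -0.60, -0.42 and -0.33 with adjusted p values from 1.1e-05 to 0.00032. The same 5 genes rose in TIM-3+ over DN TILs, by log2 changes of 0.39 (Eno1) to 0.71 (Gapdh). In Bcl6+ against DN TILs none of the 5 passed the test; their changes ran from -0.10 (Aldoa) to 0.11 (Gapdh and Pkm). In that comparison of Bcl6+ with TIM-3+, the Pkm change was -0.07 with TPM in limma (adjusted p = 0.26).

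Pgk1, the first step of glycolysis to yield ATP, had 159 and 162 FPKM in Bcl6+, 189 and 209 in TIM-3+ and 151 and 160 in DN TILs. Its log2 change of -0.25 for Bcl6+ over TIM-3+ (SE 0.07, adjusted p = 0.012) became 0.01 with TPM in limma and was -0.18 (adjusted p = 0.13) without TIM-3+ replicate 2. Its change of 0.31 for TIM-3+ over DN (adjusted p = 0.0047) had an adjusted p of 0.071 without DN replicate 1 and 0.060 without TIM-3+ replicate 2, and the change was 0.15 (adjusted p = 0.13) with total counts and 0.12 (adjusted p = 0.17) with TPM in limma. Aldoc, a minor aldolase at 4.68 to 5.88 FPKM, and Pgam1, phosphoglycerate mutase at 103 to 121 FPKM, passed no test between the TIL populations with TMM scaling in edgeR. Pgam1 was called higher in Bcl6+ than in TIM-3+ TILs with total counts (0.23, adjusted p = 0.045) and with TPM in limma (0.30, adjusted p = 0.0058).

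Several of these genes have processed copies elsewhere in the genome, and reads may have been split between them, so their levels are uncertain. Gapdh, usually among the most abundant transcripts, had only 32.8 to 63.3 FPKM in the TIL libraries. The retrogene Eno1b was counted apart from Eno1, with 8.61 and 8.09 FPKM in Bcl6+, 10.6 and 12.1 in TIM-3+ and 9.19 and 8.34 in DN TILs, next to 269 and 252, 366 and 361, and 276 and 261 FPKM for Eno1 in the same populations.

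The lactate dehydrogenase genes moved in opposite directions. Ldha encodes the subunit that favours formation of lactate, and had 567 and 573 FPKM in Bcl6+, 759 and 737 in TIM-3+ and 663 and 643 in DN TILs. It was lower in Bcl6+ than in TIM-3+ TILs (log2 change -0.33, SE 0.04, adjusted p = 1.6e-05), although with TPM in limma this change was -0.07 (adjusted p = 0.21). Ldhb (chr6:142490249-142507957, minus strand) encodes the subunit that favours the return of lactate to pyruvate, and had 37.4 and 21.5 FPKM in Bcl6+, 6.57 and 6.97 in TIM-3+ and 11.8 and 10.5 in DN TILs. The Bcl6+ libraries differed from each other, yet both lay above the other 4. Ldhb was 4.53-fold higher in Bcl6+ than in TIM-3+ TILs (log2 change 2.18, SE 0.26, adjusted p = 1.7e-05), the largest change among the glycolysis genes called in that comparison. It was 2.66-fold higher in Bcl6+ than in DN TILs (1.41, SE 0.26, adjusted p = 0.0017).

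Other changes of these genes against DN TILs lost their calls in some fits. Ldha changed by 0.15 in TIM-3+ over DN (adjusted p = 0.012), which became -0.01 with total counts and -0.03 with TPM in limma, and had an adjusted p of 0.15 without DN replicate 2 and 0.086 without TIM-3+ replicate 1. Its change of -0.18 in Bcl6+ over DN (adjusted p = 0.0068) had an adjusted p of 0.13 without DN replicate 1. Ldhb changed by -0.77 in TIM-3+ over DN (adjusted p = 0.041), and leaving out any DN or TIM-3+ library gave an adjusted p of 0.084 to 0.20. Gpi1 changed by -0.23 in Bcl6+ over DN (adjusted p = 0.019), with 0.10 and 0.15 when DN replicate 1 or 2 was left out.

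The lactate transporters also moved in opposite directions between Bcl6+ and TIM-3+ TILs. Slc16a3 encodes MCT4, the exporter of strongly glycolytic cells, and had 11.4 and 14.1 FPKM in Bcl6+, 26.3 and 27.8 in TIM-3+ and 12.0 and 12.3 in DN TILs. The TIM-3+ libraries lay above the other 4. The log2 change was -1.03 for Bcl6+ over TIM-3+ (SE 0.13, adjusted p = 1.8e-05) and 1.11 for TIM-3+ over DN (SE 0.13, adjusted p = 1.6e-05), while Bcl6+ over DN gave 0.08 (adjusted p = 0.74). Slc16a1 encodes MCT1, which carries lactate in either direction, and had 55.9 and 62.6 FPKM in Bcl6+, 36.2 and 34.3 in TIM-3+ and 51.3 and 51.0 in DN TILs. It was higher in Bcl6+ than in TIM-3+ TILs (0.81, SE 0.08, adjusted p = 3.4e-06) and lower in TIM-3+ than in DN TILs (-0.58, SE 0.08, adjusted p = 0.00013), while Bcl6+ over DN gave 0.23 (adjusted p = 0.090, and 0.31 with adjusted p = 0.043 without Bcl6+ replicate 1).

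Isoform shares within a library do not depend on how libraries are scaled, and were used to describe these exchanges. Trends over gene length or transcript GC content, as given below for the OT-I experiments, can still enter the shares. Slc16a3 has 56.6% GC against 42.9% in Slc16a1, and Slc2a3 has 47.4% against 54.0% in Slc2a1. Ldhb made up 6.18% and 3.61% of the summed lactate dehydrogenase FPKM in Bcl6+, 0.857% and 0.937% in TIM-3+ and 1.75% and 1.61% in DN TILs. Slc16a3 made up 16.9% and 18.4% of the summed FPKM of the lactate transporters Slc16a1 and Slc16a3 in Bcl6+, 42.1% and 44.7% in TIM-3+ and 19.0% and 19.4% in DN TILs. Bcl6+ and DN TILs lay close together in this share, and the TIM-3+ libraries lay far above both. The Slc2a3 share of the glucose transporters Slc2a1 and Slc2a3 was 51.1% and 51.3% in Bcl6+, 59.6% and 53.7% in TIM-3+ and 57.7% and 57.2% in DN TILs.

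**Figure D2:**
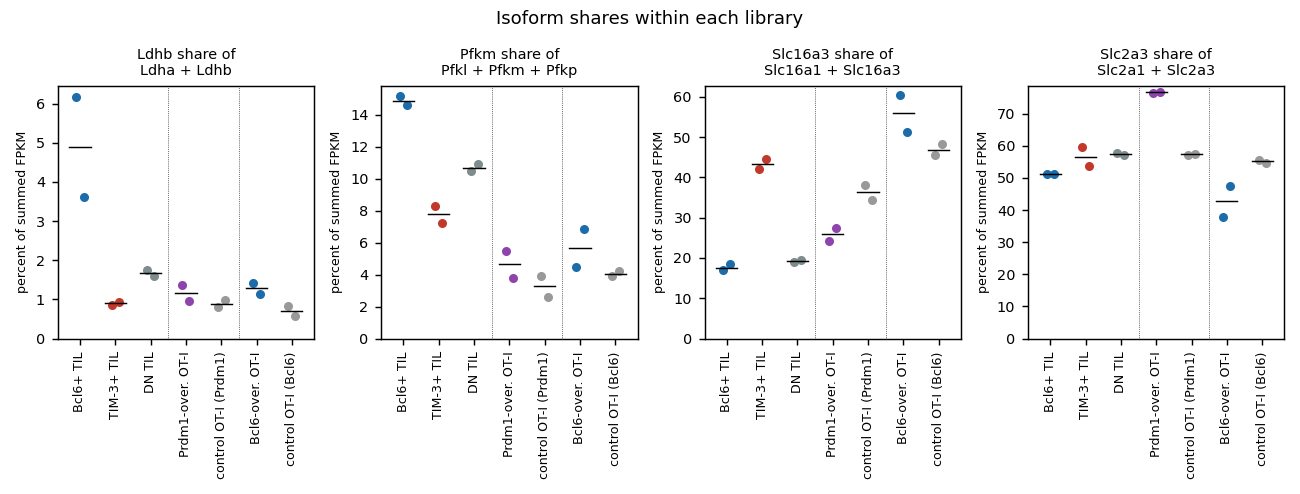
Percent of summed FPKM contributed by Ldhb, Pfkm, Slc16a3 and Slc2a3 to their isoform group, by population; each point is a library, each line the mean of 2, and dotted lines part the 3 experiments. The Ldhb and Pfkm shares are highest in Bcl6+ TILs, the Slc16a3 share is 42.1% and 44.7% in TIM-3+ TILs, and the Slc2a3 share is 76.6% and 76.8% in Prdm1-overexpressing OT-I cells.

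Among the hypoxia genes, Hif1a (chr12:73901375-73947530, plus strand), the oxygen-regulated subunit of HIF-1, had 146 and 144 FPKM in Bcl6+, 107 and 105 in TIM-3+ and 103 and 98.4 in DN TILs. The Bcl6+ libraries lay above the other 4. Hif1a was 1.42-fold higher in Bcl6+ than in TIM-3+ TILs (log2 change 0.51, SE 0.05, adjusted p = 5.0e-06) and 1.46-fold higher than in DN TILs (0.54, SE 0.05, adjusted p = 1.2e-05). TIM-3+ over DN gave 0.03 (adjusted p = 0.72).

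Of the prolyl hydroxylases, Egln3 had 8.42 and 9.23 FPKM in Bcl6+, 2.04 and 4.90 in TIM-3+ and 9.53 and 9.47 in DN TILs. It is itself a HIF target, and was 2.65-fold higher in Bcl6+ than in TIM-3+ TILs (log2 change 1.41, SE 0.33, adjusted p = 0.0038) and lower in TIM-3+ than in DN TILs (-1.50, SE 0.33, adjusted p = 0.0036). Egln1, the main HIF hydroxylase, ran the other way in level, with 6.04 and 5.97 FPKM in Bcl6+, 8.38 and 9.07 in TIM-3+ and 6.98 and 6.73 in DN TILs. Its change of -0.48 in Bcl6+ over TIM-3+ did not pass the test (SE 0.19, adjusted p = 0.065), but FPKM in limma called it (-0.47, adjusted p = 0.021).

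The targets split. Ddit4, a stress-induced inhibitor of mTORC1, had 48.1 and 45.1 FPKM in Bcl6+, 16.0 and 17.7 in TIM-3+ and 31.0 and 32.1 in DN TILs. The 3 populations did not overlap, and the order was the reverse of that of Slc2a3. Ddit4 was 2.89-fold higher in Bcl6+ than in TIM-3+ TILs (log2 change 1.53, SE 0.14, adjusted p = 1.1e-06) and lower in TIM-3+ than in DN TILs (-0.95, SE 0.14, adjusted p = 0.00017). Its change of 0.58 in Bcl6+ over DN (adjusted p = 0.011) had an adjusted p of 0.056 without Bcl6+ replicate 1, and 0.11 and 0.082 without DN replicate 1 and 2.

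Pdk1, the kinase that keeps pyruvate out of the mitochondrial pyruvate dehydrogenase reaction, averaged 10.1 ± 0.885 FPKM in Bcl6+, 7.15 ± 0.367 in TIM-3+ and 10.6 ± 0.769 in DN TILs (SD, n = 2 each), and the TIM-3+ libraries lay under the other 4. It had log2 changes of 0.56 for Bcl6+ over TIM-3+ (SE 0.13, adjusted p = 0.0035) and -0.61 for TIM-3+ over DN (SE 0.13, adjusted p = 0.0029). Bnip3 and Bnip3l encode receptors for the removal of mitochondria. Bnip3 stayed between 8.57 and 10.6 FPKM and passed no test. Bnip3l had 44.4 and 42.7 FPKM in Bcl6+, 35.6 and 37.0 in TIM-3+ and 41.1 and 39.7 in DN TILs, a log2 change of 0.32 for Bcl6+ over TIM-3+ (SE 0.09, adjusted p = 0.0097) whose adjusted p was 0.064 without TIM-3+ replicate 1.

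Ndrg1, a stress-response gene, had 8.96 and 10.1 FPKM in Bcl6+, 9.31 and 10.5 in TIM-3+ and 6.92 and 7.31 in DN TILs. It was called for TIM-3+ over DN (0.43, SE 0.14, adjusted p = 0.036), with an adjusted p of 0.19 and 0.12 without DN replicate 1 and 2 and 0.19 without TIM-3+ replicate 2; Bcl6+ over DN gave 0.44 (adjusted p = 0.054, but 0.045 with total counts, 0.049 with TPM in limma and 0.030 with DESeq2), and Bcl6+ over TIM-3+ gave 0.01 (adjusted p = 0.97). With TPM in limma the change for TIM-3+ over DN was 0.23 (adjusted p = 0.26). P4ha1, a subunit of the collagen prolyl hydroxylase, stood at 20.3 and 19.4 FPKM in Bcl6+, 25.6 and 24.4 in TIM-3+ and 19.7 and 20.2 in DN TILs, without passing the test. Mxi1, a Myc antagonist at 3.34 to 6.29 FPKM, and Ankrd37, an ankyrin repeat protein at 4.56 to 9.53 FPKM, passed no test in edgeR either. FPKM in limma called P4ha1 (-0.32, adjusted p = 0.026) and Ankrd37 (-0.54, adjusted p = 0.035) lower in Bcl6+ than in TIM-3+ TILs. It called P4ha1 higher in TIM-3+ than in DN TILs (0.31, adjusted p = 0.038). Without the filter, edgeR called P4ha1 lower in Bcl6+ than in TIM-3+ TILs (-0.33, adjusted p = 0.043). Vegfa, the angiogenic factor, was listed at 0 in both TIM-3+ libraries and at 0.635 FPKM or less in the others.

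**Figure D3:**
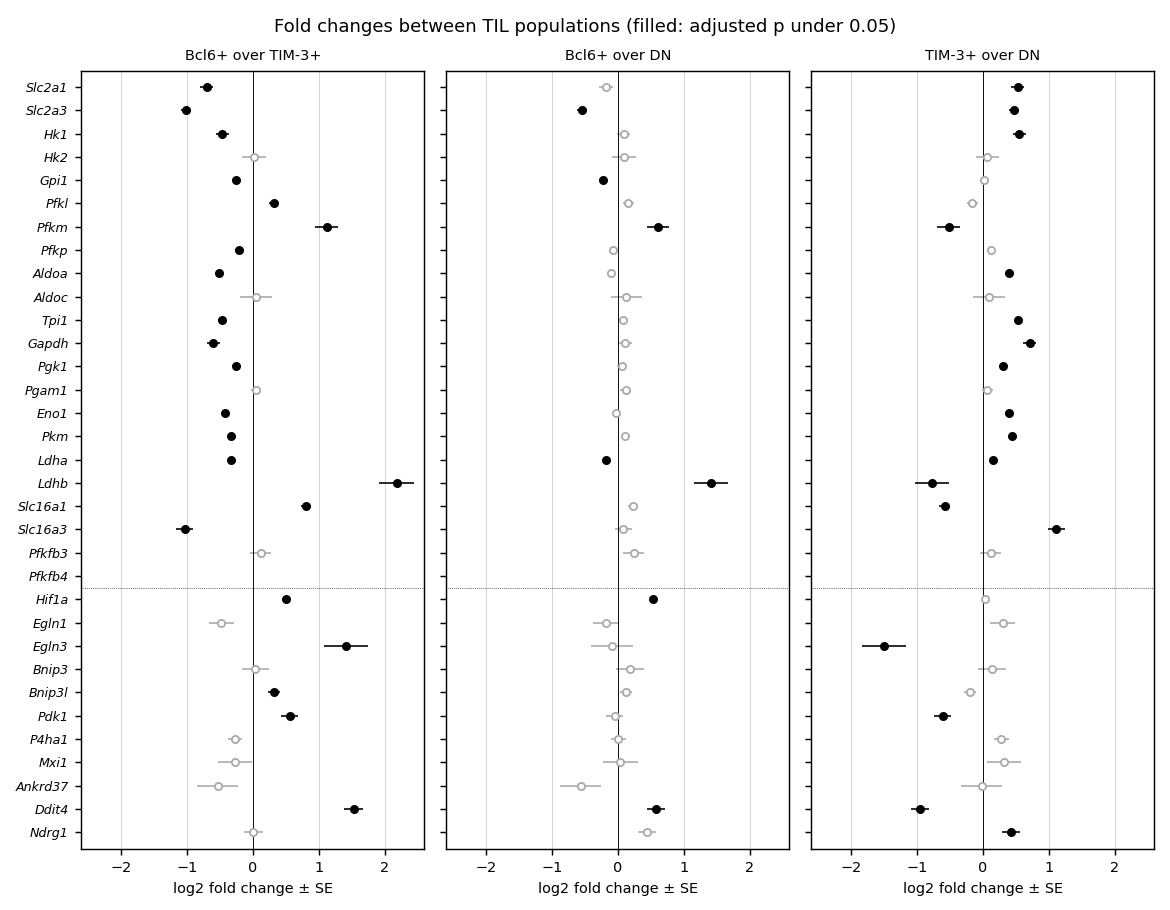
Log2 fold change ± SE of each gene tested in Bcl6+ over TIM-3+, Bcl6+ over DN and TIM-3+ over DN TILs (edgeR, 2 libraries a group); filled points have an adjusted p under 0.05, and the dotted line parts the glycolysis genes above from the hypoxia genes below. In the left panel 13 glycolysis genes lie left of 0 as filled points, of which Gpi1, Pfkp and Pgk1 pass to the right of 0 with TPM in limma, and Ldhb lies farthest right at 2.18.

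Markers moved with these genes. Of 6 CD8 T cell markers tested, 5 were lower and 1 higher in Bcl6+ than in TIM-3+ TILs, with summed levels of 1856 to 1866 FPKM in Bcl6+, 2968 to 3031 in TIM-3+ and 2128 to 2157 in DN TILs. Among them Cd8a had 266 and 275 FPKM in Bcl6+ and 567 and 564 in TIM-3+ TILs (adjusted p = 6.7e-10), and Cd3e had a log2 change of -0.65 (SE 0.05, adjusted p = 7.7e-08). Of the proliferation markers, all 12 of 12 were lower in Bcl6+ than in TIM-3+ TILs and all 12 rose in TIM-3+ over DN TILs, with a summed level of 210 to 215 FPKM in Bcl6+, 717 to 728 in TIM-3+ and 294 to 308 in DN TILs. Of 10 macrophage and monocyte markers tested, 9 were higher and 1 lower in Bcl6+ than in TIM-3+ TILs, and the 15 markers listed summed to 521 to 565 FPKM in Bcl6+ and 924 to 933 in TIM-3+ TILs. Spp1 alone gave 358 and 334 FPKM in Bcl6+ and 881 and 885 in TIM-3+ TILs. Both B cell markers tested were higher in Bcl6+ TILs, and the list summed to 364 to 383 FPKM in Bcl6+, 30.3 to 32.6 in TIM-3+ and 208 to 217 in DN TILs. Most of this was Cd74, which antigen-presenting cells express in general, at 380 and 360 FPKM in Bcl6+, 32.3 and 30.2 in TIM-3+ and 213 and 205 in DN TILs. Of 5 erythroid markers tested, 3 were higher and 1 lower in Bcl6+ than in TIM-3+ TILs. The erythroid list summed to 54.6 to 58.8 FPKM in Bcl6+, 25.4 to 31.6 in TIM-3+ and 88.1 to 91.5 in DN TILs. The part of these differences in the results for the glycolysis and hypoxia genes was not tested.

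Prdm1-overexpressing OT-I cells differed from controls in few genes of any kind: 1.36% of all tested genes were called, 1.16% higher and 0.201% lower. Of the 22 glycolysis genes 1 was higher and 0 lower, and 0 of the 11 hypoxia genes were called by edgeR. At an unadjusted p under 0.05, 3 glycolysis genes were lower, and 2 hypoxia genes were higher and 1 lower; DESeq2 called 1 glycolysis gene lower and 0 hypoxia genes. The one edgeR call was Slc2a3, with 199 and 258 FPKM in Prdm1-overexpressing cells, against 97.9 and 97.8 in controls. It was 2.49-fold higher (log2 change 1.32, SE 0.17, adjusted p = 0.021). The call rests on having both controls: without control replicate 1 or 2 the change was 1.32 and 1.30 with adjusted p values of 0.21 and 0.23, while only 7 and 3 of all genes were then called. Slc2a1 was not called (0.03, adjusted p = 0.94), with 60.8 and 78.0 FPKM in Prdm1-overexpressing cells, against 73.1 and 72.1 in controls. Slc2a3 gave 76.6% and 76.8% of the summed FPKM of both glucose transporters in Prdm1-overexpressing cells, against 57.3% and 57.6% in controls.

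Other glycolysis genes in this experiment missed the threshold. Slc16a3 had 14.4 and 18.7 FPKM in Prdm1-overexpressing cells, against 36.0 and 30.7 in controls, a log2 change of -0.92 (SE 0.18, adjusted p = 0.070). DESeq2's size factors, total counts, TPM in limma and DESeq2 itself called it, with changes of -0.95 to -1.01 and adjusted p values of 0.0039 to 0.036, and so did the fits without Prdm1-overexpressing replicate 1 (-0.78, adjusted p = 0.043) or replicate 2 (-1.14, adjusted p = 0.013). Its share of the lactate transporters was 24.3% and 27.4% in Prdm1-overexpressing cells, against 38.2% and 34.5% in controls. Ldha had 605 and 536 FPKM in Prdm1-overexpressing cells, against 812 and 796 in controls, a change of -0.39 (SE 0.16, adjusted p = 0.25). Tpi1 and Gapdh differed between the Prdm1-overexpressing libraries themselves, with 224 and 135 FPKM and 15.2 and 8.61 FPKM, against 285 and 257 and 23.0 and 18.0 in controls. Without Prdm1-overexpressing replicate 1 both were called lower (-0.94, adjusted p = 0.0060, and -1.20, adjusted p = 0.019).

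Among the hypoxia genes of the Prdm1 experiment, Hif1a had 102 and 124 FPKM in Prdm1-overexpressing cells, against 106 and 125 in controls, a log2 change of 0.07 (SE 0.16, adjusted p = 0.86). Ddit4 had 7.75 and 9.40 FPKM in Prdm1-overexpressing cells, against 17.0 and 14.8 in controls, and the groups did not overlap, but the change of -0.80 did not pass the test (SE 0.26, adjusted p = 0.17). Bnip3 had 39.0 and 40.9 FPKM in Prdm1-overexpressing cells, against 30.6 and 30.0 in controls (0.50, SE 0.17, adjusted p = 0.18), and Mxi1 had 14.1 and 14.7, against 10.1 and 10.7 (0.57, SE 0.17, adjusted p = 0.14). The spread between libraries was wider here than elsewhere, with a biological coefficient of variation of 0.227, against 0.149 in the TIL and 0.164 in the Bcl6 experiment. Over all genes, 115 were higher and 20 lower with TMM scaling, and under other scalings in edgeR 191 and 84 with DESeq2's size factors and 171 and 121 with total counts. Alternatives that change the test as well gave 340 and 269 with TPM in limma, 93 and 41 with FPKM in limma, and 354 and 232 with DESeq2. The 12 proliferation markers summed to 634 to 640 FPKM in Prdm1-overexpressing cells, against 640 to 641 in controls, the 15 macrophage and monocyte markers to 739 to 1100, against 762 to 822, and the 6 B cell markers to 86.8 to 153, against 308 to 349. Within the macrophage list, Spp1 had 878 and 614 FPKM in Prdm1-overexpressing cells, against 440 and 427 in controls, while Lyz2 had 110 and 62.9, against 245 and 218. The part of these markers in the results was not tested.

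Bcl6-overexpressing OT-I cells had lower levels of several genes from both groups. Of the 22 glycolysis genes 7 were lower and 0 higher (1 higher at an unadjusted p under 0.05 and in DESeq2), and of the 11 hypoxia genes 5 were lower and 1 higher, while 23.4% of all tested genes were lower and 25.4% higher, 48.8% in all. The median log2 change was -0.26 over the glycolysis genes and -0.41 over the hypoxia genes, against 0.00 over all genes. In edgeR, 8 glycolysis genes were lower with total counts and 7 with DESeq2's size factors. With TPM in limma, 12 were lower, 1741 of all genes were higher and 3784 lower, against 2459 higher and 2261 lower with TMM scaling in edgeR, and the median of all genes moved by -0.33 on the log2 scale.

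Both glucose transporters among the glycolysis genes were lower. Slc2a3 had 35.5 and 38.8 FPKM in Bcl6-overexpressing cells, against 97.5 and 95.6 in controls, and was 2.76-fold lower (log2 change -1.47, SE 0.17, adjusted p = 4.4e-07). Slc2a1 had 57.9 and 42.9 FPKM in Bcl6-overexpressing cells, against 78.1 and 78.9 in controls (-0.73, SE 0.18, adjusted p = 0.0021). The Slc2a3 share of this pair of transporters was 38.0% and 47.5% in Bcl6-overexpressing cells, against 55.5% and 54.8% in controls.

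Not every glycolytic enzyme followed. Pgk1 had 204 and 244 FPKM in Bcl6-overexpressing cells, against 375 and 362 in controls (-0.80, SE 0.17, adjusted p = 0.00059), and Eno1 had 486 and 406, against 752 and 684 (-0.77, SE 0.18, adjusted p = 0.0011). The retrogene Eno1b had 8.63 and 8.55 FPKM in Bcl6-overexpressing cells, against 21.3 and 21.0 in controls. Pfkp had 56.9 and 52.8 FPKM in Bcl6-overexpressing cells, against 76.2 and 76.8 in controls (-0.57, SE 0.17, adjusted p = 0.0079), with adjusted p values of 0.082 and 0.094 without control replicate 1 or 2. Aldoc had 5.58 and 5.16 FPKM in Bcl6-overexpressing cells, against 7.89 and 9.79 in controls (-0.81, SE 0.24, adjusted p = 0.0089), and an adjusted p of 0.14 without control replicate 2.

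Abundant enzymes of the same pathway were not called in the main edgeR fit. Aldoa had 582 and 487 FPKM in Bcl6-overexpressing cells, against 568 and 530 in controls (-0.12, SE 0.17, adjusted p = 0.58). Tpi1 had 376 and 316 FPKM in Bcl6-overexpressing cells, against 335 and 294 in controls (0.05, adjusted p = 0.83), and Pkm had 608 and 536, against 621 and 643 (-0.23, adjusted p = 0.28). Gpi1 was higher in level, with 150 and 113 FPKM in Bcl6-overexpressing cells, against 89.5 and 94.7 in controls (0.43, SE 0.18, adjusted p = 0.050, just above the threshold). DESeq2 (adjusted p = 0.039), its size factors in edgeR (adjusted p = 0.048) and FPKM in limma (adjusted p = 0.044) called Gpi1 higher. Gpi1 was called higher without Bcl6-overexpressing replicate 2 (0.61, adjusted p = 0.00029). Hk1, Hk2, Pfkl, Pfkm, Gapdh, Pgam1, Pfkfb3 and Pfkfb4 were not called, with changes of -0.39 (Pfkfb4) to 0.41 (Pfkfb3). TPM in limma called Aldoa (-0.47, adjusted p = 0.028), Pgam1 (-0.63, adjusted p = 0.0029) and Pkm (-0.57, adjusted p = 0.0072) lower. The fit without the filter called Gpi1, Gapdh and Pfkfb3 higher (0.53, 0.44 and 0.51). Without Bcl6-overexpressing replicate 2, Hk1 was called higher (0.44, adjusted p = 0.013) and Pgam1 lower (-0.49, adjusted p = 0.0092), and without replicate 1 Gapdh was called higher (0.44, adjusted p = 0.027).

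At the lactate end of the pathway, Slc16a1 had 27.6 and 31.6 FPKM in Bcl6-overexpressing cells, against 50.6 and 51.2 in controls, and was 1.83-fold lower (-0.87, SE 0.17, adjusted p = 0.00026). Slc16a3 had 42.4 and 33.2 FPKM in Bcl6-overexpressing cells, against 42.2 and 47.7 in controls, and overlapped them (-0.34, SE 0.18, adjusted p = 0.12). Ldha had 837 and 672 FPKM in Bcl6-overexpressing cells, against 946 and 946 in controls (-0.41, SE 0.18, adjusted p = 0.058). Ldhb had 12.0 and 7.85 FPKM in Bcl6-overexpressing cells, against 7.87 and 5.44 in controls (0.49, SE 0.31, adjusted p = 0.20). TPM in limma called Ldha (-0.76, adjusted p = 0.00052) and Slc16a3 (-0.68, adjusted p = 0.0018) lower. DESeq2 (-0.41, adjusted p = 0.036) and total counts in edgeR (-0.47, adjusted p = 0.023) also called Ldha lower. Without Bcl6-overexpressing replicate 1, Ldha (-0.58, adjusted p = 2.2e-05), Slc16a3 (-0.52, adjusted p = 0.0042) and Pkm (-0.33, adjusted p = 0.012) were called lower, and without replicate 2 Ldhb was called higher (0.77, adjusted p = 0.048).

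**Figure D4:**
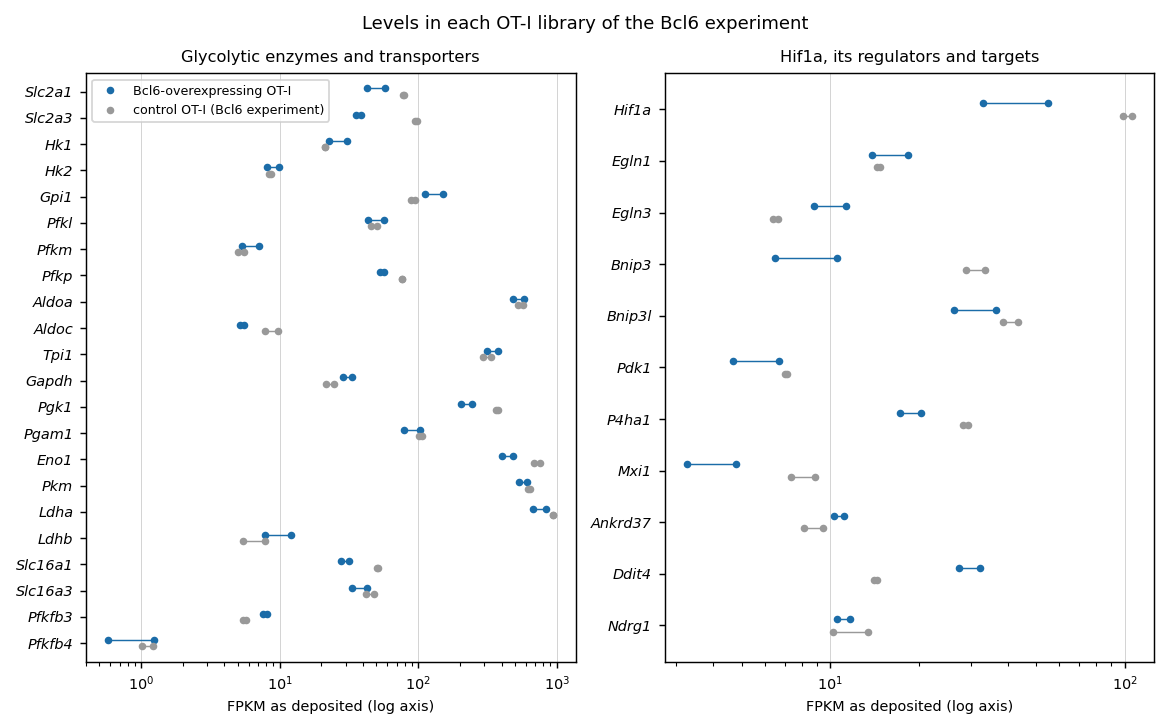
FPKM as deposited (log axis) of each glycolysis gene (left) and hypoxia gene (right) in the 2 Bcl6-overexpressing and 2 control OT-I libraries of the Bcl6 experiment; each point is a library and a line joins the libraries of a group. Bnip3, Hif1a, Mxi1 and Slc2a3 show the widest gaps with the Bcl6-overexpressing libraries on the left, and Ddit4 shows the reverse.

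The widest change among the 33 genes tested in the Bcl6 experiment was that of Bnip3. It had 6.51 and 10.5 FPKM in Bcl6-overexpressing cells, against 33.5 and 29.0 in controls, and was 3.90-fold lower (log2 change -1.96, SE 0.24, adjusted p = 8.8e-07). Its relative Bnip3l had 26.3 and 36.5 FPKM in Bcl6-overexpressing cells, against 43.5 and 38.7 in controls (-0.47, SE 0.19, adjusted p = 0.040). This call was lost without control replicate 1 or 2 or Bcl6-overexpressing replicate 1 (adjusted p = 0.26, 0.097 and 0.18). Bnip3 made up 19.8% and 22.4% of the summed FPKM of Bnip3 and Bnip3l in Bcl6-overexpressing cells, against 43.5% and 42.8% in controls.

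Hif1a itself had 33.0 and 54.9 FPKM in Bcl6-overexpressing cells, against 106 and 98.3 in controls. The libraries of the overexpressing group differed from each other, yet both lay under both controls, and Hif1a was 2.46-fold lower (log2 change -1.30, SE 0.20, adjusted p = 2.5e-05). Mxi1 had 3.26 and 4.78 FPKM in Bcl6-overexpressing cells, against 8.84 and 7.34 in controls (-1.09, SE 0.23, adjusted p = 0.00049), and P4ha1 had 17.2 and 20.4, against 29.4 and 28.2 (-0.70, SE 0.18, adjusted p = 0.0032). Ddit4 went the other way, with 32.2 and 27.3 FPKM in Bcl6-overexpressing cells, against 14.4 and 14.1 in controls (0.98, SE 0.21, adjusted p = 0.00079).

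Other hypoxia genes were not called. Egln3 had 11.3 and 8.81 FPKM in Bcl6-overexpressing cells, against 6.41 and 6.63 in controls (0.54, SE 0.25, adjusted p = 0.076), and without Bcl6-overexpressing replicate 2 it was called higher (0.70, adjusted p = 0.028). Pdk1 had 4.67 and 6.67 FPKM in Bcl6-overexpressing cells, against 7.15 and 7.02 in controls (-0.41, SE 0.21, adjusted p = 0.12), and without replicate 2 it was called lower (-0.69, adjusted p = 0.0096). Egln1, Ankrd37 and Ndrg1 had changes of 0.06, 0.19 and -0.17. Vegfa, under the filter, had 0.490 and 0.607 FPKM in Bcl6-overexpressing cells, against 0.162 and 0.112 in controls.

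In the Bcl6 experiment the change of a gene moved with its base composition, more than in the Prdm1 experiment and with opposite sign. The median log2 change over all tested genes was -0.46 among those of lowest transcript GC content, -0.04 among the middle ones and 0.45 among the highest, in groups of 3184 to 3185 genes. By gene length it was 0.37 in the shortest, -0.10 in the middle and -0.12 in the longest 3223 genes. Bcl6-overexpressing libraries also had fewer genes detected, 13316 and 13165, against 15121 and 15147 in controls. Hif1a (41.3% GC), Bnip3 (41.6%), Bnip3l (41.9%) and Slc16a1 (42.9%) lie among the low-GC genes, while Eno1 (57.4%), Aldoa (56.9%) and Ddit4 (57.9%) lie among the high-GC genes. With the trends over length and GC content removed, the changes were -0.69 for Hif1a, -0.74 for Mxi1 and -1.66 for Bnip3, all still called. Those of Slc16a1 (-0.28, adjusted p = 0.063), P4ha1 (-0.21, adjusted p = 0.20) and Ddit4 (0.02, adjusted p = 0.94) were not, and Bnip3l turned to 0.23. With these trends removed, 11 glycolysis genes were lower and 3 higher, and 3 hypoxia genes were lower and 0 higher, while the split over all genes was 2803 higher and 1942 lower. That fit newly called Pgam1 (-0.79, adjusted p = 6.2e-05), Pkm (-0.52, adjusted p = 0.00052), Slc16a3 (-0.56, adjusted p = 0.00044), Ldha (-0.33, adjusted p = 0.023) and Pfkl (-0.31, adjusted p = 0.033) lower. It newly called Pfkfb3 (0.48, adjusted p = 0.014), Gapdh (0.40, adjusted p = 0.024) and Gpi1 (0.38, adjusted p = 0.012) higher.

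Markers of other cells also differed in this experiment. The 5 neutrophil markers listed summed to 42.7 to 43.2 FPKM in Bcl6-overexpressing cells, against 0.708 to 1.67 in controls, and the 5 erythroid markers to 18.7 to 26.8 FPKM, against 0.385 to 0.456. In controls S100a8, Hba-a1, Hba-a2, Hbb-bs and Hbb-bt were listed at 0. Of 11 macrophage and monocyte markers tested, 10 were higher and 1 lower, with sums of 653 to 732 FPKM in Bcl6-overexpressing cells, against 510 to 608 in controls. The macrophage marker Lyz2 stood at 321 and 279 FPKM in Bcl6-overexpressing cells, against 57.7 and 53.8 in controls, and Spp1 at 154 and 162, against 496 and 402. Of 12 proliferation markers 2 were higher and 6 lower, with sums of 534 to 545 FPKM, against 653 to 683. The 4 B cell markers listed summed to 287 to 317 FPKM in Bcl6-overexpressing cells, against 69.7 to 94.7 in controls. Of 6 CD8 T cell markers tested, 3 were higher and 0 lower, with sums of 2045 to 2229 FPKM, against 1060 to 1402. Over all genes, FPKM summed to 343867 and 324795 in Bcl6-overexpressing cells, against 258148 and 240093 in controls. The part of these differences, and of the GC trend, in the results for the glycolysis and hypoxia genes was not tested beyond the values given.

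**Figure D5:**
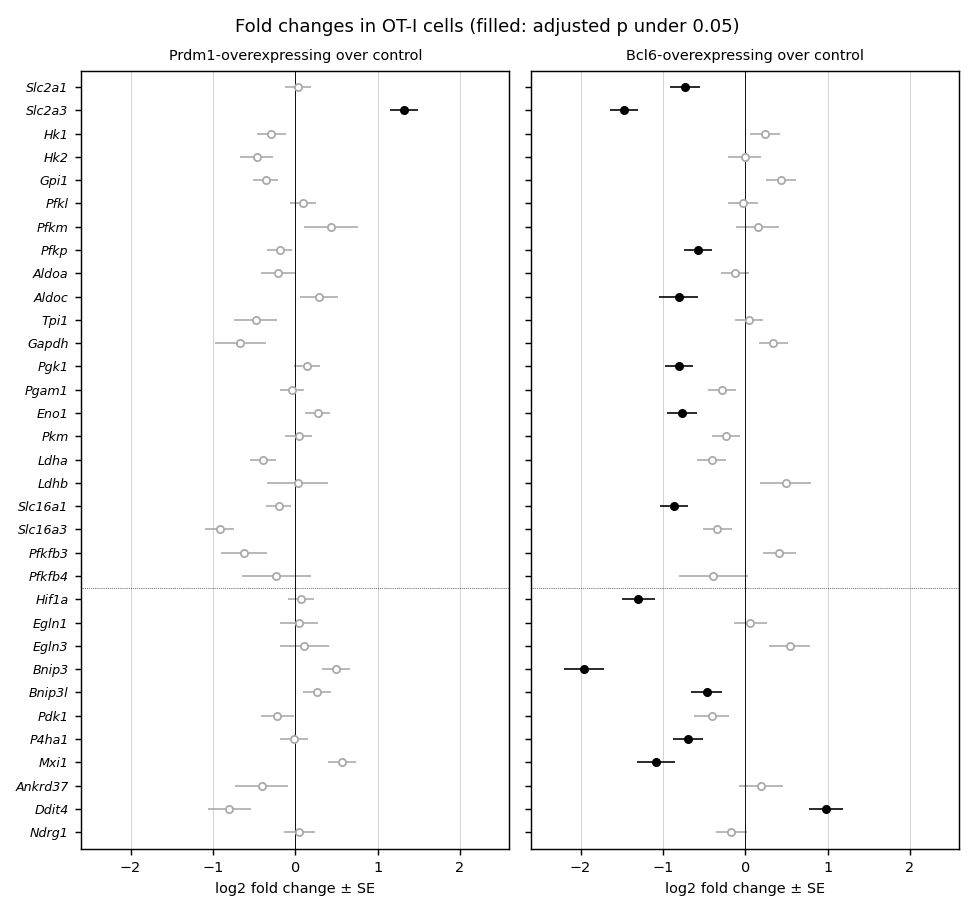
Log2 fold change ± SE of each gene tested in Prdm1-overexpressing over control (left) and Bcl6-overexpressing over control OT-I cells (right; edgeR, 2 libraries a group); filled points have an adjusted p under 0.05, and the dotted line parts the glycolysis genes above from the hypoxia genes below. Slc2a3 is the one filled point on the left at 1.32 and lies at -1.47 on the right, where Bnip3 lies lowest at -1.96; Bnip3l, filled at -0.47, passes to the right of 0 when length and GC trends are removed.

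HIF-1 and Myc family proteins are known to read short DNA letters near the start of many of these genes, so the RefSeq promoter sequences (assembly GRCm38.p6, which is mm10) were searched in the 250 bases before each annotated start. Of the 35 genes, 31 had such a window, with 47 windows in all; Slc2a3, Bnip3l, Ero1l and Ndrg1 had none. The HIF core ACGTG, or CACGT when read on the other strand, was present in 24 of the 47 windows, belonging to 20 genes, and in 16.6% of all 32851 windows. GCGTG or CACGC, another form of the HIF core, was present in 25 of the 47 windows and in 28.2% of all windows. The E box CACGTG, which reads the same on both strands and contains ACGTG and CACGT, was present in 6 of the 47 and in 6.02% of all windows. Several of these genes are textbook HIF targets and were picked as such, so these shares describe the choice of genes.

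Stretches around the core from genes called in the TIL or Bcl6 comparisons are printed to show the letters at issue, 5′ to 3′ on the strand of the gene, with the HIF core or the E box in capitals. Bnip3, P4ha1, Pgk1 and Slc16a1 were lower in Bcl6-overexpressing cells, Ddit4 was higher, and Egln3 was higher in Bcl6+ than in TIM-3+ TILs. Bnip3 (chr7:138909584-138909639, minus strand) and Slc16a1 (chr3:104638439-104638494, plus strand) hold the full E box, Pgk1 (chrX:106186925-106186998, plus strand) holds the core once on each strand, and P4ha1 (chr10:59323255-59323295, plus strand) holds it on the other strand. Ddit4 (chr10:59951928-59951982, minus strand) and Egln3 (chr12:54204074-54204124, minus strand) each hold ACGTG.
Bnip3: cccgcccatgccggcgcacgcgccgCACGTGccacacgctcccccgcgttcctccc
P4ha1: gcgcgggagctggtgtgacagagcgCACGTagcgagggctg
Pgk1: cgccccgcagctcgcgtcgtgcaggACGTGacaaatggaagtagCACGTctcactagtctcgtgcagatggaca
Slc16a1: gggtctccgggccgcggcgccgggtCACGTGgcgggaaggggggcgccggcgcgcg
Ddit4: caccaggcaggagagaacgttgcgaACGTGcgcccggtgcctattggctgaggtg
Egln3: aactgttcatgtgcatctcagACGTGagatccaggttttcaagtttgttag

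With length and GC trends removed, the changes of Ddit4, P4ha1 and Slc16a1 in Bcl6-overexpressing cells did not pass the test, so no contrast of direction is drawn from these matches. Pfkp, Aldoc and Eno1, which were lower there, held no ACGTG or CACGT in their windows. Each did hold the other form of the HIF core, GCGTG or CACGC. The lack of ACGTG says only that these letters are not in those bases. A match is a description of letters and not evidence that a factor binds.

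Genes next to this pathway were described from lists of related genes. Their changes in Bcl6-overexpressing cells are given with the length and GC trends of that experiment left in. How far those trends enter these changes is not reported here. In the pentose phosphate pathway, which branches from glycolysis to make reducing power and ribose, 3 of 6 genes tested were lower in Bcl6+ than in TIM-3+ TILs, where 19.6% of all genes were lower and 19.1% higher. They were Tkt (-0.46, adjusted p = 0.00027), Taldo1 (-0.45) and Pgls (-0.53). Tkt had 32.5 and 36.7 FPKM in Bcl6+, 49.4 and 49.5 in TIM-3+ and 38.6 and 39.0 in DN TILs. In Bcl6-overexpressing cells 1 of 6 was higher, Pgls (2.53, adjusted p = 5.1e-09), and 1 was lower, Rpe (-1.33), where 25.4% of all genes were higher and 23.4% lower.

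Among genes for pyruvate entry into mitochondria, 3 of 12 were higher in Bcl6+ than in TIM-3+ TILs, near the 19.1% of all genes. These were Dld and Pdhx of the pyruvate dehydrogenase complex (0.46 and 0.77) and the kinase Pdk2 (0.80). Pdk2 was also higher in Bcl6+ than in DN TILs (1.31, adjusted p = 0.0027), at 9.59 and 8.34 FPKM in Bcl6+ and 2.92 and 4.38 in DN TILs. In Bcl6-overexpressing cells 7 of 12 were lower and 2 higher, against 23.4% and 25.4% of all genes, among them Pdha1 (-0.84), the catalytic subunit of pyruvate dehydrogenase, and Pdp1 (-1.31), its phosphatase, both lower, and Mpc2 (2.24), a mitochondrial pyruvate carrier subunit, higher.

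Among other glycolytic isozymes, transporters and regulators, 4 of 12 were higher and 1 lower in Bcl6+ than in TIM-3+ TILs, against 19.1% and 19.6% of all genes. Slc2a6, which encodes a further glucose transporter family member, averaged 10.4 ± 0.381 FPKM in Bcl6+, 0.485 ± 0.117 in TIM-3+ and 5.65 ± 0.491 in DN TILs, n = 2 each), a log2 change of 4.48 for Bcl6+ over TIM-3+ (SE 0.29, adjusted p = 3.5e-08). Slc16a6, of the monocarboxylate transporter family, had 26.5 and 27.1 FPKM in Bcl6+, 7.41 and 8.59 in TIM-3+ and 14.0 and 12.8 in DN TILs (1.80, SE 0.13, adjusted p = 8.3e-08). Both families thus held genes that were higher and genes that were lower in Bcl6+ than in TIM-3+ TILs. Of 8 genes of glycogen metabolism 1 was higher and 3 were lower in Bcl6+ than in TIM-3+ TILs, against 19.1% and 19.6% of all genes, and in Bcl6-overexpressing cells 6 of 9 were lower, against 23.4%, among them Pgm2 and Gbe1 (-1.18 each) and Ugp2 (-0.98).

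Of 10 HIF subunits and oxygen-sensing regulators, 1 was called in Bcl6+ against TIM-3+ TILs, the hydroxylase Egln2, which was higher, as were 19.1% of all genes (0.43, adjusted p = 0.016). In Bcl6-overexpressing cells 5 were higher and 2 lower, against 25.4% and 23.4% of all genes. Elob and Rbx1, parts of the ubiquitin ligase that removes HIF-1α, were higher (4.03 and 1.69) and Cul2, its scaffold, was lower (-1.16). Elob had 203 and 136 FPKM in Bcl6-overexpressing cells, against 10.2 and 9.28 in controls. Of 16 further HIF targets, 3 were higher and 3 lower in Bcl6+ than in TIM-3+ TILs, and 4 were higher and 5 lower in Bcl6-overexpressing cells, shares near those of all genes (19.1% and 19.6%, and 25.4% and 23.4%). Fam162a had 118 and 118 FPKM in Bcl6+, 49.9 and 55.8 in TIM-3+ and 88.1 and 95.9 in DN TILs (1.22 for Bcl6+ over TIM-3+, adjusted p = 3.4e-06). It also had 182 and 200 FPKM in Bcl6-overexpressing cells, against 23.9 and 18.3 in controls (3.09, adjusted p = 9.8e-11). Kdm3a, a histone demethylase that hypoxia induces, had 7.26 and 8.18 FPKM in Bcl6-overexpressing cells, against 17.1 and 14.8 in controls (-1.13, adjusted p = 3.7e-05).

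Of 19 Myc, mTORC1 and AMPK regulators, 3 were higher and 2 lower in Bcl6+ than in TIM-3+ TILs, below the 19.1% and 19.6% of all genes. Myc, which drives glycolysis in activated T cells, had 92.1 and 91.0 FPKM in Bcl6+, 61.0 and 59.8 in TIM-3+ and 89.0 and 96.0 in DN TILs (0.66 for Bcl6+ over TIM-3+, SE 0.08, adjusted p = 1.2e-05). Foxo1 (1.44) and Sesn1 (1.06), which encode a transcription factor of quiescent T cells and an mTORC1 inhibitor, were higher as well. In Prdm1-overexpressing cells 1 of 19 was called, Sesn2, with 7.53 and 9.09 FPKM, against 24.4 and 23.2 in controls. In Bcl6-overexpressing cells 8 were higher and 3 lower, against 25.4% and 23.4% of all genes.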

How the data were processed

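The RNA-seq values came from the deposited tables, which hold raw counts and FPKM per gene, both made by the authors. Per the submitters' processing notes, Bowtie2, Subread, featureCounts, edgeR and DESeq2 go with the TIL samples, while the OT-I samples list RSEM, DESeq2, featureCounts and HISAT2, all on mm10. Versions, the FPKM library size and use of strand were not given in the sources used. Samples were grouped by their titles and labels, 2 libraries a group, unpaired. For each experiment, genes averaging 1 FPKM or more were tested on the deposited counts with edgeR 4.0.16 (TMM scaling, quasi-likelihood test, two-sided, R 4.3.3), with 9748 (TIL), 9947 (Prdm1) and 9669 (Bcl6) genes and Benjamini-Hochberg adjustment over all of them at 0.05. The 6 TIL libraries shared 1 fit. The fits were tested on simulated data first. Alternatives were DESeq2 1.42.0, its size factors, total counts, limma 3.58.1 on log2(TPM + 1) or log2(FPKM + 1), no filter, a replicate block, removal of length and GC trends (splines of 5 degrees of freedom), and each library left out. The 2 libraries of each group differed by more than sampling noise. All 35 genes were accounted for, with isoform groups, Hif1a and the widest changes in full; of related lists, up to 3 called genes per comparison with the smallest p were named. The 35 genes and all lists were chosen with earlier results of these data known.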

Additional observations from a re-analysis of the deposited data

How the results depend on the processing

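Across the alternatives, 15 of the 22 genes called in Bcl6+ against TIM-3+ TILs stayed called in the same direction, as did 3 of 7 in Bcl6+ against DN, 13 of 18 in TIM-3+ against DN, 0 of 1 with Prdm1 and 7 of 13 with Bcl6 overexpression. Direction was reversed with TPM in limma, which changes scaling and test together, for Gpi1 (0.01), Pfkp (0.05) and Pgk1 (0.01) in Bcl6+ against TIM-3+ TILs, for Ldha in TIM-3+ against DN TILs (-0.03; -0.01 with total counts), and for Bnip3l in Bcl6-overexpressing cells with length and GC trends removed (0.23). TPM and total counts moved the median of all genes by 0.25 and 0.18 in Bcl6+ against TIM-3+ TILs and by -0.18 and -0.16 in TIM-3+ against DN TILs. The cause of these changes was not tested.

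Counts of called genes moved as follows. In Bcl6+ against TIM-3+ TILs, 7 glycolysis genes were lower under TPM, and 3 hypoxia genes were lower with FPKM in limma and 1 without the filter. In Bcl6+ against DN TILs, 4 glycolysis genes were higher and 1 lower under TPM, and 1 was higher without the filter. In TIM-3+ against DN TILs, 0 hypoxia genes were higher under TPM and total counts and 2 with FPKM, and 1 glycolysis gene was lower without the filter. In Prdm1-overexpressing cells, 1 glycolysis gene was lower with DESeq2, its size factors, total counts and TPM. In Bcl6-overexpressing cells, 1 glycolysis gene was higher with DESeq2, its size factors and FPKM, and 3 without the filter or without length and GC trends; 12 were lower under TPM and 11 without those trends. There, 2 hypoxia genes were higher with FPKM, 3 without the filter and 0 without the trends, and 3 were lower without the trends. For all genes of the Prdm1 experiment, the split of calls was 115 higher and 20 lower, against 33 and 11 without the filter.

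With 1 library left out, the lone sample of a group is assumed to vary like the others. The genes called then numbered 4 (glycolysis higher), 11 to 13 (glycolysis lower), 4 to 5 (hypoxia higher) and 0 (hypoxia lower) in Bcl6+ against TIM-3+ TILs. In the same order they numbered 1 to 2, 1 to 3, 1 to 2 and 0 in Bcl6+ against DN TILs, 10, 1 to 2, 0 to 1 and 3 in TIM-3+ against DN TILs, 0 to 1, 0 to 3, 0 and 0 in the Prdm1 experiment, and 0 to 3, 5 to 10, 1 to 2 and 4 to 6 in the Bcl6 experiment.

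Replicate numbers are not stated to mark a shared animal, and the deviations of same-numbered libraries correlated at 0.028, 0.015 and 0.036 between TIL populations, 0.28 for Prdm1 and -0.055 for Bcl6 overexpression. With the replicate block, 1659 genes were called in the Prdm1 experiment in place of 135, and among them 4 glycolysis genes were lower (Slc16a3, Tpi1, Gapdh and Ldha, adjusted p = 1.2e-05, 0.0034, 0.0047 and 0.0089), 1 hypoxia gene was higher (Mxi1, 0.021) and 1 lower (Ddit4, 0.033). Depth of 18309162 to 22322079 counts leaves genes near 1 FPKM, such as Pfkfb4 and Vegfa, poorly measured.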
